A study of Mus musculus with 6 samples.

Results

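The interleukin-6 cytokine family was read here through 9 genes: the cytokines Il6, Lif, Il11 and Clcf1, the receptor chains Il6st, Lifr and Osmr, the transcription factor Stat3 and the feedback inhibitor Socs3. A probe belonged to the family when its annotation gave 1 gene symbol and that symbol was one of the 9. This rule found 14 probes for 8 genes, out of 34967 transcript probes and 18069 named genes on the array. Lif had no such probe, so its expression was not analysed here. Of the 14 probes, 13 were bright enough to be tested, and these stood for all 8 genes.

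The 6 samples were early-passage primary fibroblast cultures from mouse embryos, each culture from its own embryo. In 3 of them, labelled C4, C3 and B1, a gene trap cassette inserted in the Ing1 locus had inactivated it. The other 3, labelled H2, H3 and I2, came from wild-type littermates. The sources used here do not give strain, sex, embryonic age or which embryos shared a litter. Each culture was hybridised to its own 1-colour CodeLink array, and the question was how expression changes when Ing1 is lost. Ing1 encodes a chromatin regulator that reads a histone mark.

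Cytokines of this family signal through gp130, the shared receptor chain encoded by Il6st. Interleukin-6 and interleukin-11 bind receptors of their own that then recruit gp130, whereas leukemia inhibitory factor, oncostatin M and cardiotrophin-like cytokine use gp130 with the LIF receptor or, for oncostatin M, with the oncostatin M receptor. The assembled receptor activates JAK kinases, which phosphorylate STAT3. STAT3 then induces target genes, among them Socs3, whose product binds gp130 and shuts the signal down. Fibroblasts are a well-known source of interleukin-6 and of leukemia inhibitory factor.

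Values are normalized intensities, the spot signal above local background in units of each array's median transcript probe, so 1 is a median signal. Between 55.5% and 62.1% of the transcript probes on an array carried a good quality flag. Ing1 itself read 0.93 to 1.39 in the deficient cultures and 11.1 to 11.7 in the wild-type cultures, which is the order the labels give. Fibroblast markers were bright on every array, with a summed level over 12 genes of 1073 to 1141 in deficient and 909 to 1129 in wild-type cultures. By the limma test given below, 2 of these 12 rose and 0 fell: Lum and Thy1 (0.84 ± 0.19 and 0.89 ± 0.22, log2 difference ± SE). Over all tested probes 4.94% were called higher and 1.63% lower. With 1 array left out, Lum was called in 1 of the 6 fits and Thy1 in 0 (limma adjusted p = 0.0711 without H3). Endothelial markers summed to at most 4.41, with Pecam1 and Cdh5 flagged low on all 6 arrays, and epithelial markers to at most 7.05. Array H3 stood between the genotypes: its position on the first principal component was 5.84, against 34.6 and 52.4 for the other wild-type arrays and -39.2 to -26.0 for the deficient arrays. Values without H3 are therefore given for the family probes, and for other named genes where leaving it out changed the call or the direction. H3 was picked from these same values as the wild-type array nearest the deficient ones. Leaving it out tends to widen genotype differences, so a pass or a smaller p without H3 is not a gain in evidence.

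Il6 was higher in the Ing1-deficient cultures. One probe of Il6st was lower there, while its other probes were not. The probes of Stat3, Socs3, Il11 and Clcf1 did not pass the test, and neither did those of Osmr and Lifr in the comparison of all 6 arrays. By limma, adjusted for all 19575 tested probes after Benjamini and Hochberg, 2 of the 13 family probes were called at an adjusted p under 0.05, 1 higher and 1 lower. Among all tested probes 6.57% were called, 4.94% higher and 1.63% lower, a split that was 75.2% higher here and 60.7% higher after quantile normalization. Without H3 the family count was 4 of 13, where 13.9% of all tested probes were called. The median difference of the 13 probes was -0.02 on the log2 scale, against 0.02 over all tested probes. Il6 passed the filter on flags through the deficient arrays only. Il6st probe 250112 and the tested probes of Lifr, Il11, Clcf1 and Socs3 passed it through the wild-type arrays only.

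**Figure D1:**
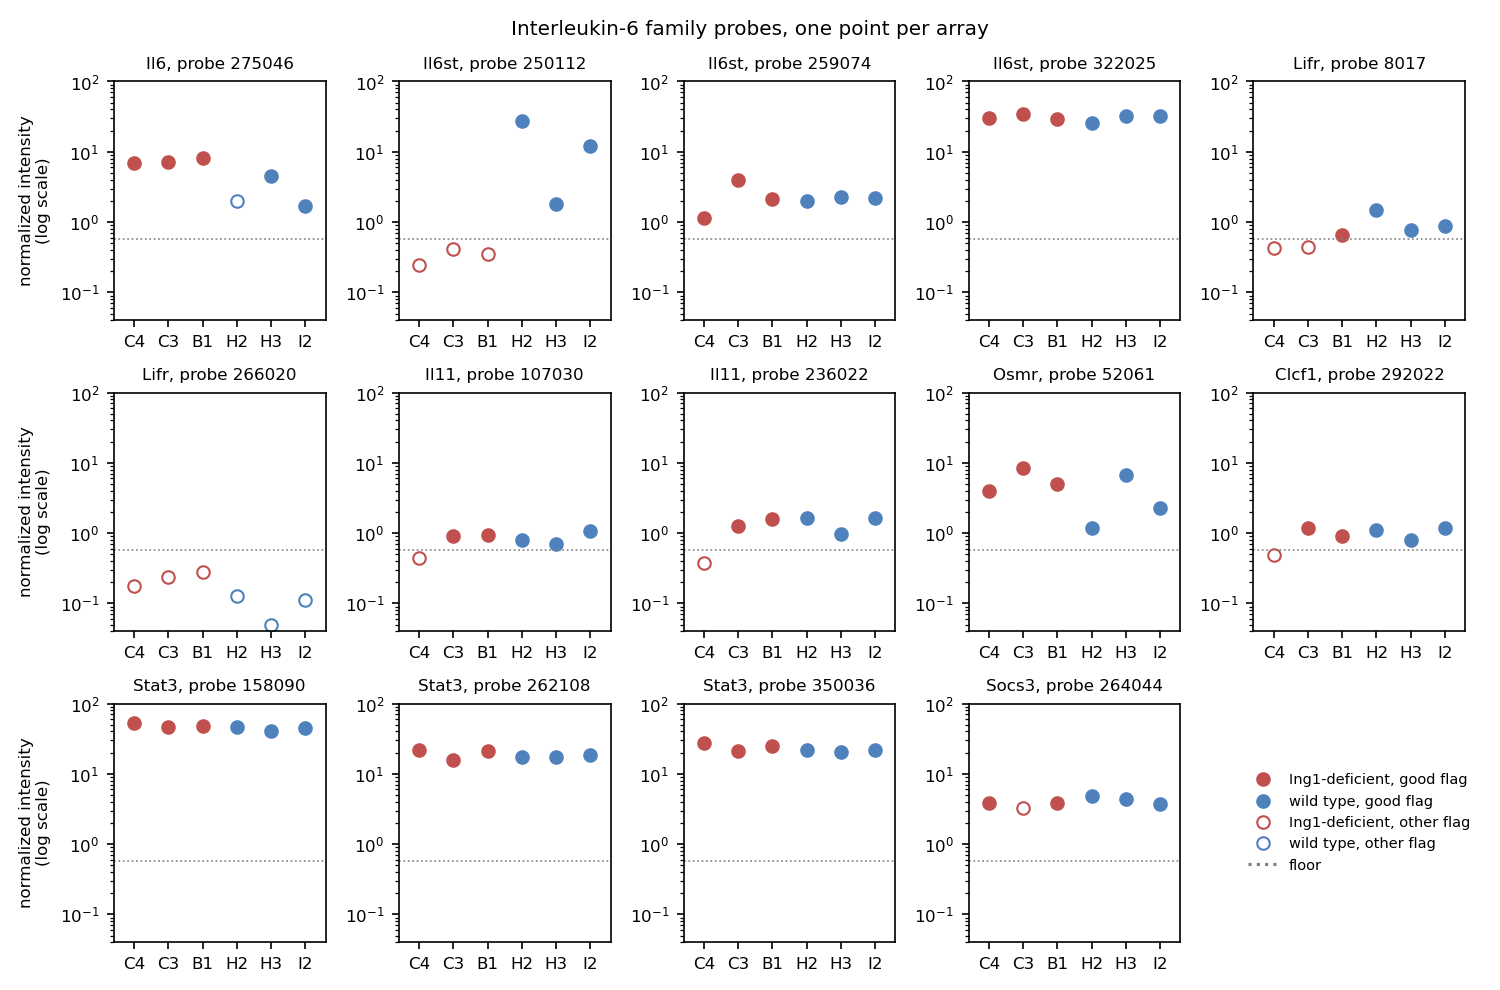
Normalized intensity (log scale) of the 14 family probes, one panel per probe and one point per array, red for Ing1-deficient and blue for wild type. Open points are spots without a good flag, the dotted line is the floor of 0.57 used in the test, and the Lifr 266020 point of H3, measured at -0.0019, is drawn at the bottom of its panel. Il6 lies between 6.89 and 8.03 in deficient cultures and at most at 4.54 in wild type, and Il6st probe 250112 is the reverse.

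Among the cytokines, Il6 had the clearest difference. The deficient cultures C4, C3 and B1 read 6.89, 7.21 and 8.03, while wild-type H2, H3 and I2 read 2.03, 4.54 and 1.72. The deficient cultures lay close together and above every wild-type culture, and H3 was the highest of the wild-type cultures. The spot mean stood 4.70, 5.68 and 5.57 times above local background in C4, C3 and B1, and 2.23, 3.81 and 2.33 times in H2, H3 and I2, so the gene was read above background on every array. The H2 spot was flagged as irregular and the others as good. The means were 7.38 ± 0.591 and 2.76 ± 1.55 (SD, n = 3 each). The log2 difference was 1.55 ± 0.32 (SE), a 2.93-fold rise with a 95% interval of 1.77 to 4.84 (limma adjusted p = 0.0327). Without H3 it was 1.98 ± 0.17 (adjusted p = 0.00165).

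The direction of Il6 was the same in every alternative run, and its call was not. With 1 array left out, limma's adjusted p was 0.0943 without C4, 0.0659 without C3, 0.112 without B1, 0.116 without H2 and 0.131 without I2, with differences of 1.28 to 1.60. Each of these fits has 1 array fewer than the full comparison.

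The promoter of Il6 holds matches to motifs of factors known to drive this gene, and it is shown because Il6 is the family member that rose. The window is the 250 bases before the transcription start in RefSeq's GRCm38.p6, on the plus strand at chr5:30012864-30013113. Capitals mark, from the distal end, the AP-1 motif TGANTCA at -249, the C/EBP motif TTGCNNAA on the reverse strand at -128 and the NF-kB motif, matched as GGGATTTTCC and searched with any base at the fifth position, at -44, none of which overlaps another.
Il6 promoter: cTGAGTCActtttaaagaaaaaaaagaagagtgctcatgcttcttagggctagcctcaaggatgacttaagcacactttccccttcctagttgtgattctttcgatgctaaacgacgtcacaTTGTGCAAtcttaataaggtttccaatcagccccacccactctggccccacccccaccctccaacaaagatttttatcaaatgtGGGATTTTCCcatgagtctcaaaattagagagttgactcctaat

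Both strands of each 300-base window, 250 bases before to 50 after the start, were searched. Over all 32851 such windows in the RefSeq table, 0.411% held the NF-kB motif, 10.8% the C/EBP motif and 7.81% the AP-1 motif. A window was found for 8 family genes, Lif among them, and Clcf1 had none. Of these 8, Il6 alone held the NF-kB and C/EBP letters, and 4 genes (Il6, Il11, Lif and Osmr) held the AP-1 letters. The CRE motif TGACGTCA was in none of the family's windows and in 1.79% of all. These are matches of letters and not measured binding.

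The genes that act upstream of Il6, in its transcription or on its mRNA, gave 3 higher and 0 lower of 20 tested, with a list median of 0.13. Over all tested probes 4.94% were called higher and 1.63% lower, and the list was chosen with earlier results known. Il1r1, the signalling receptor for interleukin-1, read 5.37, 6.95 and 6.72 in C4, C3 and B1 and 1.38, 4.47 and 1.66 in H2, H3 and I2. As for Il6, H3 was the highest wild-type culture and the groups did not overlap (1.54 ± 0.38, adjusted p = 0.0478). Ptgs2, the inducible cyclooxygenase, rose by 1.28 ± 0.17 (adjusted p = 0.0164), and Tlr2, a receptor for bacterial lipoproteins, by 0.95 ± 0.23 (adjusted p = 0.0443). Il1rap, the accessory chain that pairs with Il1r1, had a difference of -0.85 ± 0.29 that did not pass, and -1.12 without H3, where it did (adjusted p = 0.0274). Its probe was dim, at 0.82, 1.06 and 0.29 in C4, C3 and B1, the last under the floor of 0.57. The interleukin-1 genes themselves were dim: Il1a was flagged low on all 6 arrays and Il1b on 4, and neither was tested. The NF-kB subunit gene Rela gave 0.34 ± 0.20 and the inhibitor gene Nfkbia -0.23 ± 0.16, and neither passed.

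Macrophages can also make interleukin-6, and some markers of macrophages and blood cells were higher in the deficient cultures. Of 12 tested markers 3 rose (C1qa, C1qb and Mrc1, by 2.00 ± 0.46, 1.85 ± 0.37 and 1.73 ± 0.37 on the log2 scale), 0 fell and 9 did not pass. Over all tested probes 4.94% were called higher and 1.63% lower. Mrc1 was dim in wild type, at 0.39, 0.61 and 0.54 in H2, H3 and I2, with 1 good spot. With 1 array left out, C1qa, C1qb and Mrc1 were called in 1, 3 and 2 of the 6 fits. All 12 differences were above 0, with a median of 1.08, and 7 had an unadjusted p under 0.05 in limma. So did 5137 of all 19575 tested probes. In C1qa, C1qb, C1qc, Mrc1 and Aif1 every deficient culture was above every wild-type culture. The groups did not overlap, in either direction, in 31.4% of all tested probes. Over the 15 markers with a probe, the summed levels were 60.9, 187.5 and 98.7 for C4, C3 and B1. They were 69.0, 43.0 and 30.4 for H2, H3 and I2, so the groups overlapped, with C4 under H2. Ptprc, the pan-leukocyte marker, was flagged low on all 6 arrays. The markers' part in the Il6 difference was not tested. In these bulk cultures more cells that make a transcript and more of it per cell cannot be told apart.

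**Figure D2:**
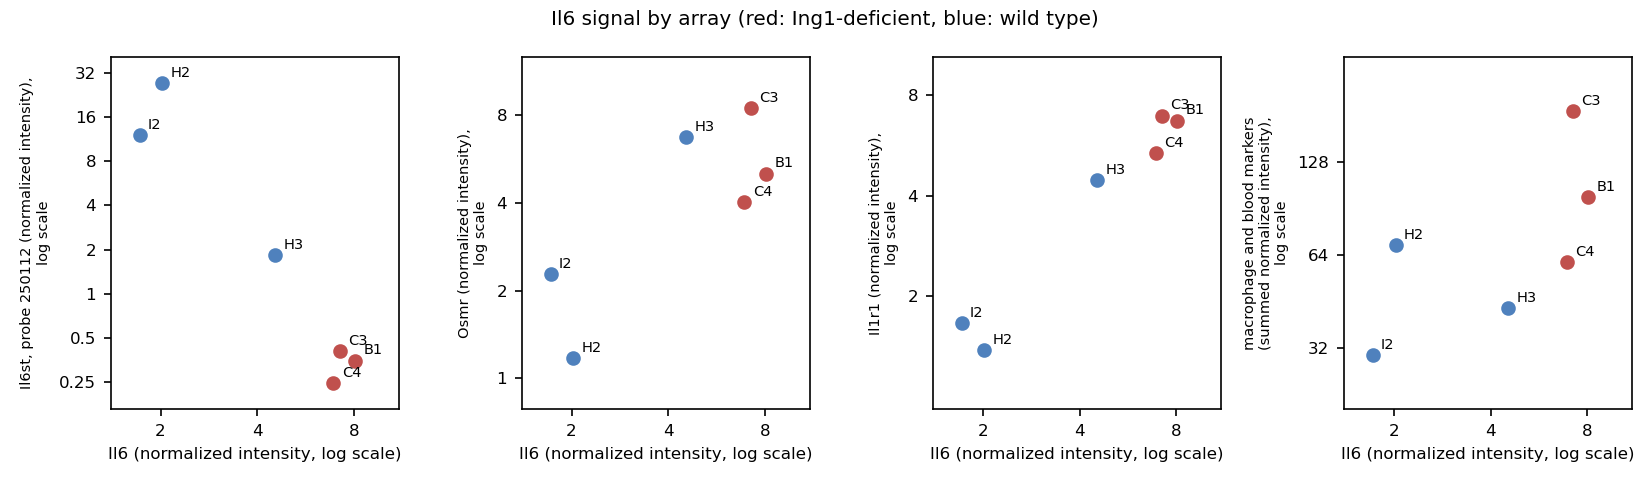
Each panel sets Il6 normalized intensity (x axis, log scale) against another measure on the same arrays (y axis, log scale), with red points for Ing1-deficient and blue for wild type. H3 lies between the other wild-type arrays and the deficient arrays for Il6, Il6st probe 250112 and Il1r1, and the macrophage and blood markers are highest in C3 (187.5).

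By likeness over the 6 arrays, the genes closest to Il6 among 11863 compared were Zfp276, Gen1, Mmab, Cd3eap and Tmem104, with Pearson r on the log2 scale of 0.996, 0.995, 0.995, 0.995 and 0.994. These values describe the same 6 arrays and 2 genotypes, are the highest of many, and carry no test. Zfp276 and Gen1 were under the floor of 0.57 in H2 and I2 and were set to it there.

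The other cytokines of the family were dim. The probes of Il11, a cytokine that fibroblasts make in response to TGF-beta, read 0.45 to 1.08 and 0.38 to 1.66 over the arrays, with the lowest value of each in C4, where both were flagged low. Their log2 differences were -0.11 ± 0.24 (95% interval -0.65 to 0.43) and -0.40 ± 0.37 (-1.24 to 0.43). Clcf1, a ligand of the ciliary neurotrophic factor receptor, read 0.50, 1.19 and 0.92 in deficient and 1.10, 0.79 and 1.18 in wild-type cultures. Its values overlapped (-0.24 ± 0.27, 95% interval -0.86 to 0.38, adjusted p = 0.627). All 3 of these differences turned positive without C4 (0.12, 0.04 and 0.05), so no direction can be given for them. Without H3 they were -0.25, -0.66 and -0.42, and none passed.

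Of the wider set of related cytokines and receptors, 7 of 17 genes were tested, 0 were called (0 also at an unadjusted p under 0.05 in limma), and the list median was 0.04. Without H3 1 was called, Cntf. Oncostatin M, encoded by Osm, read 15.1 to 17.2 in deficient and 12.6 to 19.1 in wild-type cultures (0.04 ± 0.18, and -0.11 without H3). Csf3, which encodes granulocyte colony-stimulating factor, a cytokine of related structure, gave 0.07 ± 0.16, and Ctf1, the cardiotrophin-1 gene, 0.26 ± 0.17. The receptor gene Csf3r gave -0.32 ± 0.21 and was dim, with means of 0.77 in deficient and 0.98 in wild-type cultures. The ligand-binding receptor of interleukin-6, Il6ra, was flagged low on all 6 arrays and was not tested. Cntfr, the receptor chain for ciliary neurotrophic factor, had no good spot either.

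Il6st, the shared receptor chain, gave a different answer by probe. The probe annotated to sequence entry NM_010560 was bright and even, at 30.6, 34.2 and 29.5 in C4, C3 and B1 and 25.9, 31.9 and 31.9 in H2, H3 and I2. Its difference was 0.08 ± 0.16 (95% interval -0.28 to 0.44, adjusted p = 0.803), with a sign that turned under quantile normalization (-0.05). The probe of entry X62646 read 1.14, 3.94 and 2.14 against 1.99, 2.27 and 2.22, so the wild-type values lay inside the deficient range (-0.02 ± 0.37, 95% interval -0.86 to 0.82). Without H3 the probes of NM_010560 and X62646 gave 0.13 ± 0.17 and 0.02 ± 0.44. As ratios to wild type, the intervals run from 0.822 to 1.35 for the first probe and from 0.551 to 1.77 for the second.

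The remaining Il6st probe, 250112, annotated to entry BY763761, separated the genotypes. Cultures C4, C3 and B1 read 0.25, 0.41 and 0.35, all flagged low, while H2, H3 and I2 read 27.3, 1.84 and 12.0, all flagged good. The deficient spots stood 1.15 to 1.29 times above local background, the H2 spot 18.1 times and the H3 spot 2.33 times. Every wild-type culture was above every deficient culture, and the wild-type cultures themselves spanned a wide range. The log2 difference at the floor of 0.57 was -3.89 ± 0.78, or 14.8-fold lower in deficient cells (95% interval on the log2 scale -5.64 to -2.14, limma adjusted p = 0.0311). Since no deficient spot was flagged good, the size is set by the floor. With the lowest good signal of each deficient array in its place, the wild-type log2 mean stood 19.1-fold higher. This is a bound for the deficient signal only, and it leaves out the wide spread of the wild-type cultures. The size moved with the wild-type cultures, to -3.05 without H2 and -4.99 ± 0.31 without H3. Deficient cells averaged 0.336 ± 0.0824 and wild-type cells 13.7 ± 12.8 (SD, n = 3 each).

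This call of probe 250112 was lost with any array but H3 left out, at adjusted p of 0.0983 without C4, 0.0629 without C3, 0.107 without B1, 0.0911 without H2 and 0.129 without I2, and the adjusted p was 0.000858 without H3. The mean of the 3 Il6st probes, an alternative added after the data were seen, differed by -1.28 (adjusted p = 0.041). The sources used here do not say which transcript each probe reads, so the result belongs to probe 250112 and not to Il6st as a whole. The genes closest to it over the 6 arrays were Fn3k, Napg, Ctbs, Crebrf and Rtn4r (r of 0.998 to 0.999 over 11863 genes, a description with no test). The deficient values of probe 250112, Fn3k and Rtn4r were all under the floor and were set to it, so they are equal by construction.

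Osmr, the oncostatin M receptor chain, read 4.02, 8.46 and 5.05 in C4, C3 and B1 and 1.17, 6.74 and 2.28 in H2, H3 and I2, all with good flags. H2 and I2 lay below the deficient cultures, but H3 lay above C4 and B1, so the groups overlapped. The log2 difference was 1.08 ± 0.55 (95% interval -0.15 to 2.32, adjusted p = 0.246). Without H3 it was 1.76 ± 0.36 and passed (adjusted p = 0.0203). With H3 kept it also passed with array weights (1.28, adjusted p = 0.00554) and with the leading letter of the culture names as a random block (1.06, adjusted p = 0.00032), settings that called 8160 and 12901 of all tested probes.

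Lifr, the LIF receptor chain, was near the limit of detection. Probe 8017 read 0.43, 0.44 and 0.66 in C4, C3 and B1, with C4 and C3 flagged low, and 1.50, 0.78 and 0.89 in H2, H3 and I2. The wild-type cultures were all higher, and the difference of -0.75 ± 0.24 did not pass (95% interval -1.30 to -0.21, adjusted p = 0.092). It was -0.94 ± 0.24 without H3, where it passed (adjusted p = 0.037), and -0.13 with the floor doubled to 1.14. The other Lifr probe was flagged low on all 6 arrays and was not tested. It read 0.18 to 0.28 in deficient and -0.0019 to 0.13 in wild-type cultures, the reverse order of probe 8017. The groups did not overlap in 3 of the 13 tested family probes, those of Il6, Lifr and Il6st 250112, against 31.4% of all tested probes. Each of these 3 passed the filter on flags only through the genotype where it was higher.

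**Figure D3:**
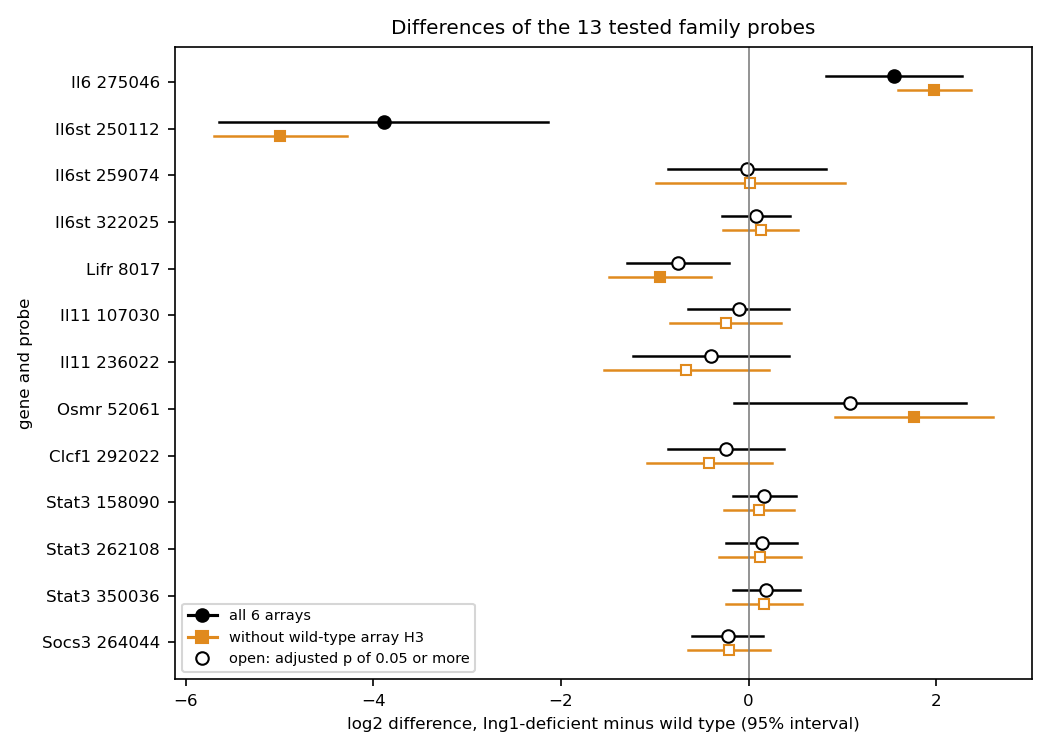
Log2 differences (x axis, Ing1-deficient minus wild type) of the 13 tested family probes with 95% intervals from limma, over all 6 arrays (black circles) and without wild-type array H3 (orange squares). Filled symbols mark an adjusted p under 0.05: Il6 and Il6st 250112 in both fits, Osmr and Lifr 8017 without H3.

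Stat3, the transcription factor at the end of the pathway, was bright in every culture. Its probes, 158090, 262108 and 350036, read 46.1 to 53.0, 16.0 to 21.7 and 20.9 to 27.4 in deficient and 40.4 to 46.2, 17.1 to 18.5 and 20.5 to 21.6 in wild-type cultures. The groups overlapped in each. The log2 differences were 0.17 ± 0.15, 0.14 ± 0.17 and 0.19 ± 0.16, and the highest upper bound of their 95% intervals was 1.46-fold. Without H3 they were 0.11, 0.12 and 0.16, with adjusted p of 0.578 to 0.713.

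Socs3, the feedback inhibitor, read 3.84, 3.27 and 3.87 in C4, C3 and B1 and 4.87, 4.34 and 3.66 in H2, H3 and I2, with the C3 spot flagged irregular. I2 lay inside the deficient range. The difference was -0.22 ± 0.17 (95% interval -0.60 to 0.15, adjusted p = 0.433), and -0.21 without H3. As a ratio to wild type, the interval ends at 1.11. The window of Socs3 was the only one of the family's to hold the STAT motif TTCNNNGAA, which 8.30% of all windows hold. It is shown, in capitals, within 30 bases at -164 to -135 on the minus strand, chr11:117969501-117969530 of GRCm38.p6.
Socs3 promoter stretch: gaaaccagccTTCTTAGAAgggaggggggg

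The kinases and other brakes of the pathway gave 3 higher and 0 lower of 22 tested, with a list median of -0.03. The shares over all tested probes were 4.94% higher and 1.63% lower. Socs2, a relative of Socs3 best known for restraining growth hormone signalling, read 19.6, 13.5 and 16.0 in C4, C3 and B1 and 8.30, 9.67 and 8.05 in H2, H3 and I2 (0.90 ± 0.18, adjusted p = 0.0311). Every deficient culture was above every wild-type culture. Ptpn1, a phosphatase of JAK2, rose by 0.65 ± 0.16 (adjusted p = 0.0452) and Socs5 by 0.64 ± 0.15 (adjusted p = 0.044). Socs5 was dim, at 1.02, 1.02 and 0.92 in C4, C3 and B1 and 0.42, 0.70 and 0.63 in H2, H3 and I2. All of its values lay under the doubled floor of 1.14, so no difference was left there. Jak1, the main kinase bound to gp130, gave 0.17 ± 0.15, Jak2 -0.12 ± 0.20 and Tyk2 -0.25 ± 0.18, and none passed. Ptpn11, the phosphatase that docks on gp130, gave -0.20 ± 0.22, and Socs1 -0.01 ± 0.25 (0.08 without H3).

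Genes that STAT3 is known to induce went both ways. Of 30 tested, 3 rose, 1 fell and 26 did not pass, with a list median of 0.22 (0.31 without H3). Among all tested probes 4.94% were called higher and 1.63% lower. A2m, the alpha-2-macroglobulin gene, read 4.24, 4.84 and 4.74 in C4, C3 and B1 and 1.01, 0.96 and 0.42 in H2, H3 and I2. The deficient cultures were all well above the wild-type cultures (2.49 ± 0.23, adjusted p = 0.00459), and the call held when any single array but B1 was dropped (adjusted p = 0.0584 without B1). Nnmt, which encodes nicotinamide N-methyltransferase, rose from 2.37 ± 1.06 to 6.77 ± 0.746 (SD, n = 3 each; limma 1.60 ± 0.28, adjusted p = 0.0253), and the cyclin gene Ccnd1 by 1.02 ± 0.24. Ccnd1 was dim in wild type, at 0.60, 0.89 and 1.12 in H2, H3 and I2.

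Pim3, a survival kinase gene, fell. It read 8.07, 8.38 and 9.98 in C4, C3 and B1 and 44.1, 16.1 and 25.3 in H2, H3 and I2, with H3 the lowest wild-type culture (-1.58 ± 0.32, adjusted p = 0.0312). Its other probe gave -1.60. The related kinase gene Pim1 gave -1.49 ± 0.39 and did not pass (adjusted p = 0.0558), but did without H3 (-1.99, adjusted p = 0.00423). The acute-phase gene Saa3 (1.24 ± 0.34), Cebpd (0.22 ± 0.27) and Junb (0.09 ± 0.24) did not pass either, and of these Saa3 passed without H3 (1.57, adjusted p = 0.0149).

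Among the 10 genes called in these 4 lists, A2m was the only one to pass in more than 2 of the 6 comparisons that each dropped 1 array. Socs2 and Ptgs2 were called without C3 and without H3, and Il1r1, Tlr2, Ptpn1, Socs5, Nnmt, Ccnd1 and Pim3 without H3 only.

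**Figure D4:**
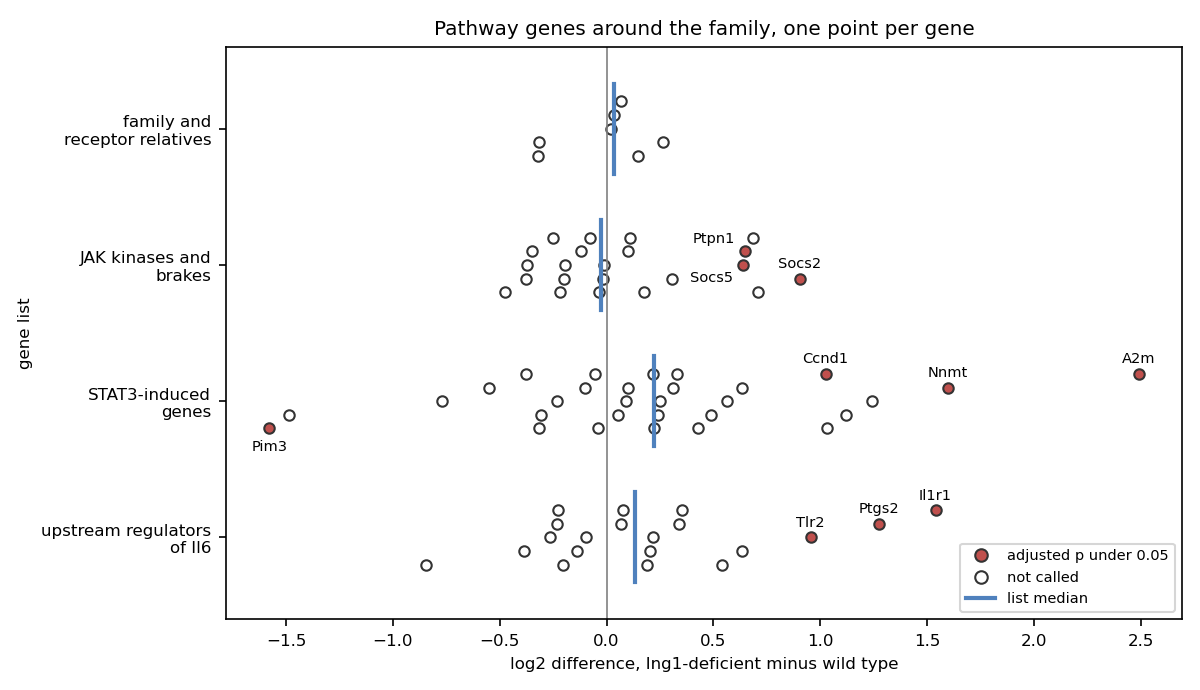
Log2 differences (x axis, Ing1-deficient minus wild type) of the tested genes in 4 lists around the family, one point per gene, filled and named where the adjusted p was under 0.05, with the list median as a blue bar. The rows spread points vertically for legibility only. Called genes are 0 of 7 relatives, 3 of 22 kinases and brakes, 4 of 30 genes induced by STAT3 and 3 of 20 upstream regulators. Among all tested probes 6.57% were called.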

How the data were processed

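Biotin-labelled target from total RNA was read on 1-colour CodeLink arrays, per the labels. Per the file headers, the authors took spot values from the CodeLink Expression Analysis program, version 4.1.0.29054. The deposited normalized intensity equals spot mean minus local background median, divided by the array's median over transcript probes, on a linear scale, and the series table repeats these deposited intensities (217362 of 217362 values equal within 5e-05). Other scanner columns were deposited beside it: spot mean, background and flags. Genome build is not given in the sources used here.

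Masked spots were missing, values under 0.57 (the median over arrays of the 1st percentile of good spots) were set to it, and log2 values were compared with limma 3.58.1 (two-sided) in R 4.3.3 over 19575 probes (all 3 spots good in 1 genotype or both). The fit was tested on simulated data. Where no spot of a genotype was flagged good, the bound on the fold is the bright group's log2 mean against the higher of the spot and the lowest good signal of each array. Symbols came from the platform annotation, updated through RefSeq gene IDs (21487 of 21615 probes matched). In the gene lists, the brightest tested probe stood for a gene. Named were all family members, up to 4 called genes per list and direction or the lowest p where none passed, and the 5 genes most like each called member; other genes were named by their role after their values were seen. Members and lists were chosen with earlier results of these data known. The number of arrays limits the precision.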

Additional observations from a re-analysis of the deposited data

How the results depend on the processing

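The family count of 2 called probes became 1 with normexp background correction, quantile normalization, cyclic loess or a variance trend with robust fitting, 4 with array weights, 9 with the leading letter as a random block, and 0 with a floor of 0.01, the floor doubled, no flag filter, only probes good on every array (a set that holds neither called probe) or the methods' t-test after adjustment. Leaving out 1 array gave 0 to 4. Over all probes, the 1286 calls became 575 with normexp, 737 with quantile, 749 with cyclic loess, 275 and 191 with the lower and the higher floor, 20 without a filter, 8160 with array weights, 12901 with the random block, 7 with the methods' t-test after adjustment and 3926 before it, and 5 to 2726 with 1 array left out. The weights came from an estimate that did not converge, and the block's correlation was estimated at -0.89 over letters that hold 1 or 2 arrays, so neither count is a gain in evidence; other causes were not tested. Il6 stayed positive (0.91 to 2.12) and Il6st probe 250112 negative (-4.99 to -2.15) in all alternatives run on the single probe. Each was called in 1 of the 6 fits that left out 1 array and in 5 of the 11 others. These 5 include the array weights, the random block and the methods' t-test before adjustment. The mean of the 3 Il6st probes gave -1.28. No paired analysis was possible because the genotypes share only 1 replicate number. Signal over background limits Il11, Clcf1 and Lifr in the family, and among the other named genes at least Socs5, Ccnd1, Mrc1 and Il1rap.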

Other observations

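With array H3 left out, further genes of the pathway passed that did not pass over all 6 arrays. This setting also raised the calls over all tested probes from 1286 to 2726. H3 was picked from these data for lying nearest the deficient arrays, so the values below are a description and not separate evidence. Among the genes induced by STAT3, Pim1 gave -1.99 (limma adjusted p = 0.00423) and Vegfa, the vascular growth factor gene, -0.99 (adjusted p = 0.0159), while Myc gave 1.48 (adjusted p = 0.0109), Saa3 1.57 (adjusted p = 0.0149), the immediate early gene Egr1 1.46 (adjusted p = 0.0304) and Bcl2 0.80 (adjusted p = 0.027). Over all 6 arrays these were -1.49, -0.77, 1.12, 1.24, 1.03 and 0.63. Among kinases and other STATs, Jak3 gave 0.95 (adjusted p = 0.0122) and Stat6 0.96 (adjusted p = 0.0163). On the interleukin-1 route to Il6, the adaptor gene Myd88 gave 0.86 (adjusted p = 0.0184), and the dim Il1rap -1.12 (adjusted p = 0.0274). Of the relatives of the family, Cntf, the ciliary neurotrophic factor gene, gave -0.57 (adjusted p = 0.048).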
